A study of Mus musculus with 2 samples.

Results

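In all, 9 genes were examined whose products are made chiefly by hepatocytes: Plg, Serpina1a, Pzp, Mbl2, C3, Saa1, Habp2, Dio1 and Tdo2. They were chosen by gene symbol from the authors' deposited comparison table after earlier results had shown high signals for several of them, so their levels, ratios and listing are descriptions and carry no test. Each of the 9 genes had 1 probe set in that table, of 1625 listed probe sets and of 22690 on the array. RefSeq's GRCm38.p6 annotation still uses all 9 symbols.

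The samples were labelled as jejunum, a segment of the small intestine between duodenum and ileum, of male C57BL/6J mice aged 10 weeks. One group (the control) received AIN76, the regular chow, and the other a diet with 20% glucose, each for 4 weeks. There was 1 array per diet. The number of animals behind each array is not stated, so no difference below has a replicate error and diet cannot be told apart from animal or hybridisation. Signals are linear MAS5 intensities. A percentile is the share with a lower signal on the same array, among the 22626 probe sets other than array controls, and rank 1 is the brightest of them.

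Plasma proteins are secreted by hepatocytes into the blood, where they inhibit proteases, dissolve clots, mark microbes and carry hormones and lipids. In the acute-phase response, interleukin-6 and interleukin-1 act on hepatocytes through STAT3, NF-kappaB and the C/EBP factors and raise the output of some of these proteins, above all serum amyloid A in mice. Intestinal epithelium is also known to make complement C3, serum amyloid A and, in mice, the lectin Mbl2. Basal transcription of many liver genes depends on the hepatocyte nuclear factors HNF1 and HNF4, which enterocytes contain too.

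Promoter sequence was examined because the acute-phase gene Saa1 differed between the arrays while C3, another C/EBP-driven acute-phase gene, did not move with it, and because Serpina1a and Pzp stayed at the top of both arrays. RefSeq promoter windows of GRCm38.p6 matched 8 of the 9 genes. The 200 bases before the annotated start are printed below 5' to 3' on the gene's strand for 4 of them. The Saa1 stretch is chr7:46742981-46743180 (minus strand), that of C3 chr17:57228137-57228336 (minus), that of Serpina1a chr12:103863620-103863819 (minus) and that of Pzp chr6:128526721-128526920 (minus). Capitals mark matches on either strand to a C/EBP motif written TTNNGNAA or to the HNF1 half-site GTTAAT.
Saa1: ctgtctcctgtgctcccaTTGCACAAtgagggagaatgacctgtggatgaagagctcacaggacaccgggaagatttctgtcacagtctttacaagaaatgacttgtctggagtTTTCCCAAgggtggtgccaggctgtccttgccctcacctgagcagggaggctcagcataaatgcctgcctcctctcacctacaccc
C3: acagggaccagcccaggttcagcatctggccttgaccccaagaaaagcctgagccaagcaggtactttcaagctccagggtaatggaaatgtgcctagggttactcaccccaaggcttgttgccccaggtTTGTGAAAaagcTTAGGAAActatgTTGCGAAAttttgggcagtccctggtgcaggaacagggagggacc
Serpina1a: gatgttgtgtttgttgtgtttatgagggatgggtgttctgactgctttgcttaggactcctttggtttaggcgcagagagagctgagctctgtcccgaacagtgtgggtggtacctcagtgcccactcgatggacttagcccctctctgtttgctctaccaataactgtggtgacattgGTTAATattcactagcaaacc
Pzp: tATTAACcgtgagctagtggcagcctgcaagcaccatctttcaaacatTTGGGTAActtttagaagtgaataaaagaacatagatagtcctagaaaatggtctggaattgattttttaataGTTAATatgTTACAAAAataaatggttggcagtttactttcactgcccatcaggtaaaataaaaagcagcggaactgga

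The Saa1 stretch holds 2 C/EBP matches, starting 182 and 86 bases before the annotated start, and that of C3 holds 3, starting 70, 58 and 45 bases before it. Neither has the HNF1 half-site. Serpina1a has 1 HNF1 half-site, 21 bases before the start, and no C/EBP match, while Pzp has 2 of each, with its nearer pair at 79 (HNF1) and 70 (C/EBP) bases. Of the matched genes not printed, Habp2 has 3 C/EBP matches and 1 HNF1 half-site, and Mbl2, Dio1 and Tdo2 have neither motif. Over the 8 matched genes, 4 had a C/EBP match and 3 the HNF1 half-site. Of all 32851 RefSeq windows, 29.99% and 5.06% did, so the C/EBP letters are common in any such stretch. The Saa1 window starts from an annotated transcript inside the gene's outermost bounds. A match is a description of the letters and no evidence of binding.

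Most of these liver-type genes were among the brightest probe sets of both arrays. Of the 9 genes, 8 lay above the 90th percentile on both, as did 9.02% of all non-control probe sets and 16.6% of those in the authors' deposited table. On both arrays 5 lay above the 99th percentile, a count for which the share of all probe sets was not computed. Their high signals were part of how the genes came to notice and support nothing further. In bulk tissue, fewer cells of a type and less RNA per cell cannot be told apart.

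The plasma protease inhibitors came highest. Pzp, the mouse counterpart of alpha-2-macroglobulin that traps proteases in a cage, gave signals of 5551 (control) and 3652 (high-glucose), ranks 22 and 32. Pairs of values below keep this order. Serpina1a, an alpha-1-antitrypsin that blocks neutrophil elastase, had signals of 5069 and 4065, ranks 34 and 23. Both stayed among the very brightest probe sets, and their order reversed between the arrays. The Serpina1a probe set carries the suffix x, which Affymetrix gives where probes also match other transcripts, and mice have several near-identical Serpina1 genes, so this signal may pool them.

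Among genes of fibrinolysis, Plg, the precursor of the clot-dissolving protease plasmin, had signals of 3968 and 1994, ranks 57 and 94. Habp2, a plasma serine protease that binds hyaluronan and can activate factor VII, was the dimmest of the 9, with signals of 126.1 and 42.7 at percentiles of 86.8 and 83.3. It was the only one of the 9 under the 90th percentile. Its probe set has the suffix s, which marks probes shared among transcripts.

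The innate immunity genes also ranked near the top on the control array. C3, the central protein of all complement pathways, had signals of 4354 and 3439, ranks 44 and 37. Mbl2, a mannose-binding lectin that starts the lectin pathway, had signals of 2486 and 1278, ranks 137 and 178. Saa1, a serum amyloid A apolipoprotein of high-density lipoprotein, had signals of 2902 and 327.7, which took it from rank 100 to rank 770. RefSeq lists Saa1 and Saa2 as synonyms of each other, so which of these neighbouring genes the authors' symbol means is uncertain.

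Both hepatocyte enzymes were dimmer than the innate immunity genes on the control array and stood slightly higher within the high-glucose array. Tdo2, which opens tryptophan's ring as the first step of the kynurenine pathway, had signals of 954.0 and 705.7, ranks 522 and 388. Dio1, a selenoenzyme that converts thyroxine to the active hormone T3, had signals of 256.4 and 133.7, at percentiles of 92.4 and 93.0. Probe sets differ in affinity, so this order is that of the signals and does not rank the genes by abundance.

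**Figure D1:**
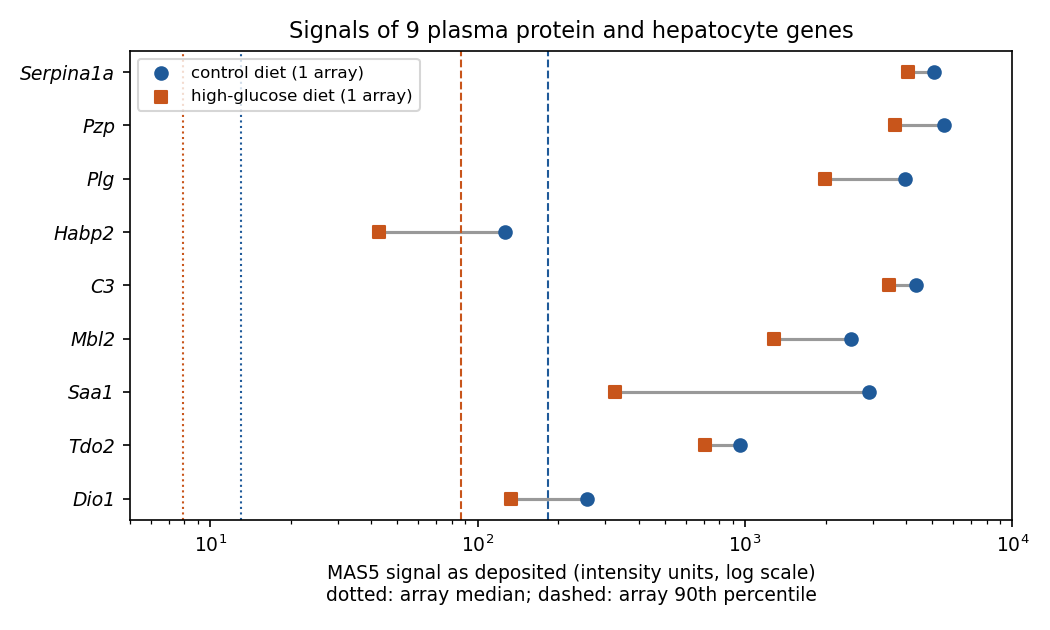
MAS5 signal of each gene (x axis, log scale) on the control array (circles) and on the high-glucose array (squares), with each array's median (dotted) and 90th percentile (dashed) in its colour. Every gene but Habp2 lies right of the 90th percentile on its own array, and Saa1 has the longest line, from 2902 to 327.7.

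On the high-glucose array, the signal of Saa1 was 4.52-fold lower against its control value than the array-wide change alone would give. The other 8 genes stayed within 1.57-fold of that change. All 9 signals were lower there as deposited, but so was the array as a whole. The median signal was 13 and 7.9, and over the 11315 expressed probe sets the log2 ratio (high-glucose over control) had a median of -0.97. Expressed here means a mean log2 signal at or above the median. The relative log2 ratio below is the log2 ratio minus this array-wide shift.

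The relative log2 ratio of Saa1 was -2.18, against -3.15 as deposited. It was the only gene of the 9 past 2-fold relative to the shift in either direction, as were 9.89% of expressed probe sets, 4.97% of them on the lower side. As deposited, 2 of 9 were at least 2-fold lower, Saa1 and Habp2, against 47.7% of expressed probe sets. Among the 2040 probe sets above the 90th percentile on both arrays, 5 had a lower ratio than Saa1. Its percentile within the array, which no scaling between arrays can change, went from 99.6 to 96.6.

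C3 did not share that difference. Its relative log2 ratio was 0.63, and Serpina1a, Tdo2 and Pzp stood at 0.65, 0.54 and 0.37, with that of Pzp below 0 under 2 of 7 other settings. Of the 2040 bright probe sets, 93.1% had a lower ratio than C3. The size of these ratios depended on the scaling. Quantile normalization put C3 at 0.11 and Serpina1a at 0.13, and loess centring put them at 0.25 and 0.24. Other named probe sets at the very top also lay above 0, such as Apoa1 at 0.83 and Eef1a1 at 0.67, while Scd1 lay at -0.16 and Cyp2c29 at -0.02. Dio1, Mbl2 and Plg lay at 0.03, 0.01 and -0.02, close to the shift, on a side of it that changed with the scaling. Quantile normalization put them at 0.13, -0.245 and -0.43, and loess centring at 0.09, -0.245 and -0.35. Habp2 was the other gene on the lower side, at -0.59, a relative 1.51-fold lower level. Over the 9 genes the median was 0.03, beside 0.03 over the bright probe sets, whose quartiles were -0.22 and 0.27. The log2 ratio of Saa1 minus the median of the other 8 was -2.37, a comparison chosen after its value was seen.

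**Figure D2:**
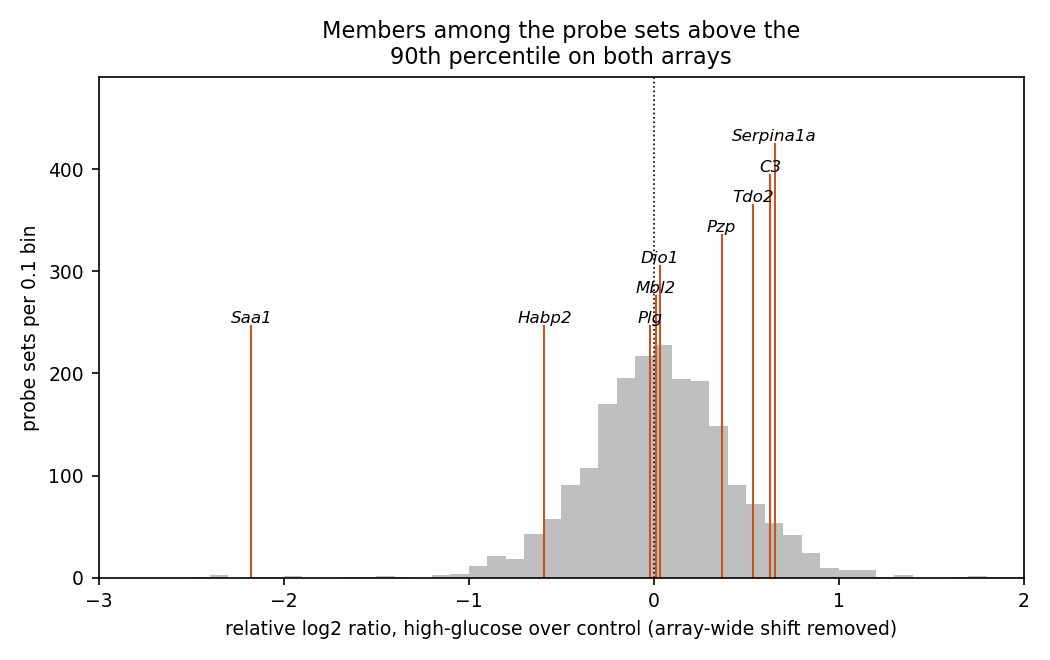
Relative log2 ratio (x axis) of the 2040 probe sets above the 90th percentile on both arrays, as a histogram in bins of 0.1, with each of the 9 genes as a vertical line (line heights only separate the names; Habp2 is not among the 2040). Saa1 at -2.18 stands outside the bulk of the histogram, the other 8 between -0.59 and 0.65 stand within it, and 4 probe sets lie beyond the axis.

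The authors' deposited table gives a signal log ratio of its own (SLR), on a log2 scale with the high-glucose diet set against the control. It differed in size from the relative log2 ratio by 0.46 (Tdo2) to 4.22 (Plg). By SLR, 7 of the 9 genes were higher and 2 lower on the high-glucose diet, where 585 of the 1625 listed probe sets were higher and 1040 lower. The median SLR of the 9 genes was 1 in the authors' deposited table and that of all listed probe sets -0.4. An SLR of at least 1 was listed for 5 of the 9 genes and for 18.1% of the table, and one at or below -1 for Saa1 alone of the 9 and for 9.85% of the table. The authors' selection and scaling of these values are not stated, nor is whether they came from the same arrays as the deposited signals. The values of both sources are therefore set side by side and neither checks the other.

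Plg showed the widest gap between the sources. The authors' deposited table lists it at an SLR of 4.2, an 18.4-fold higher level and the 40th highest value of the table, counting ties as equal. Its deposited signals were 1.99-fold lower on the high-glucose array, close to the shift of the whole array, though quantile normalization put its log2 ratio at -0.43. The SLR exceeded the relative log2 ratio of Plg by 4.22.

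Habp2 was also listed as higher in the authors' deposited table, with 1.2, while its relative log2 ratio was -0.59. C3 differed the other way, where the authors' deposited table has -0.6 against a relative log2 ratio of 0.63. For Pzp, Serpina1a and Tdo2 both values were above 0, the authors' deposited table listing them at 1.3, 1.2 and 1.0. Mbl2 and Dio1 were listed there at 0.8 and 0.7 but had signals on the shift. Saa1 was the one gene for which the sources gave a like, large difference in one direction, where the SLR of the authors' deposited table was -2.7. In all, the sign of the SLR matched that of the relative log2 ratio for 6 of 9 genes, and for 645 of the 1110 listed probe sets that counted as expressed (58.1%). The count of 6 is not stable, because Plg, Mbl2, Dio1 and Pzp changed side with the scaling, and it ranged from 4 to 7 over 7 other settings.

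**Figure D3:**
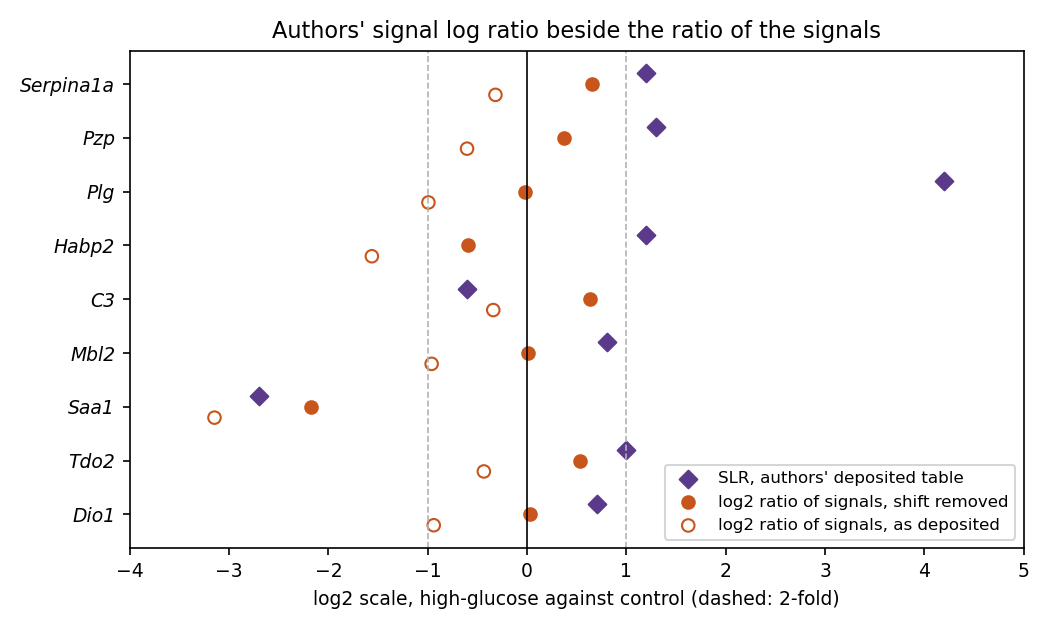
For each of the 9 genes, the SLR of the authors' deposited table (diamonds), the log2 ratio of the signals with the array-wide shift removed (filled circles) and the same ratio as deposited (open circles), all high-glucose against control, with dashed lines at 2-fold. Plg has its diamond at 4.2 and its filled circle at -0.02, whereas all 3 marks of Saa1 lie left of the 2-fold line.

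Other genes of the same pathways named in the authors' table were often bright too, but reached further down the arrays. Across 7 lists of plasma proteins, acute-phase genes and hepatocyte enzymes, transporters and receptors, 16 further genes were named. Of these, 10 lay above the 90th percentile on both arrays, as did 16.6% of the probe sets in the authors' table. Below the median on both lay 0, a count for which no share of all probe sets was computed. The lowest were the serine dehydratase-like gene Sdsl at a percentile of 32.7 on the control array and the prolactin receptor gene Prlr at 48.6 on the high-glucose array. Their median relative log2 ratio was -0.21 over the 15 that counted as expressed. Past 2-fold was 1 of the 15, as were 9.89% of expressed probe sets. It was Prlr at -1.40, from signals of 38.8 and 7.5.

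In coagulation, F10, the factor that cleaves prothrombin, gave 996.3 and 457.5, and its relative log2 ratio was -0.15. Proc, the anticoagulant protein C gene, had 897.4 and 457.0, and Hgfac, which activates hepatocyte growth factor, 317.3 and 127.9. With Plg and Habp2 that makes 5 named genes of the list of 22, of which 0 were past 2-fold in relative log2 ratio, with Proc (-0.002) and Plg (-0.02) on the shift. Their SLR in the authors' deposited table was nevertheless above 0 for 4 of the 5, with F10 at 2.4 and Proc at 1.5.

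In the complement and lectin pathway, 6 of 26 genes were named and 0 were past 2-fold in relative log2 ratio. Masp1, the protease that works with Mbl2 in the lectin pathway, gave 291.0 and 95.2, and its relative log2 ratio was -0.64. C1qa, which macrophages are known to make, had signals of 192.7 and 143.3 and stood at 0.54. C2, the protease cleaved in the classical and lectin pathways, had 117.0 and 51.6. In all, 3 of the 6 lay above the shift and 3 below it. By SLR 3 were above 0 and 3 below, but not the same genes. The authors' deposited table has Masp1 at 1.5 and C1qa at -0.3, each opposite in sign to its relative log2 ratio.

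Of 30 genes on the acute-phase protein list only C3, Mbl2, Saa1 and Cd14 were named, so a wider acute-phase difference could not be read from this table. Cd14, the lipopolysaccharide co-receptor, stood at 0.12, from signals of 29.7 and 16.5. On the list of acute-phase signalling genes 6 of 24 were named, and 2 of them were past 2-fold lower, as were 4.97% of expressed probe sets. These were Nfkbiz, an NF-kappaB cofactor, at a relative log2 ratio of -1.67 and Socs3, the feedback inhibitor of interleukin-6 signalling, at -1.03. Their signals were low, 48.0 and 7.7 for Nfkbiz and 45.2 and 11.3 for Socs3, and the authors' deposited table lists them at 0.5 and -0.5. Stat3, which carries the interleukin-6 signal, stood at -0.94 from 339.5 and 90.5, while Jak1 lay at -0.06, Pim1 at 0.28 and Nfkbia, an NF-kappaB inhibitor and target, at 0.71. The authors' deposited table has Stat3, Jak1 and Pim1 at -0.3 each and Nfkbia at -0.5.

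Among carriers and enzymes, Selenop, the plasma selenium carrier, gave 5215 and 3838, and its relative log2 ratio was 0.53. Adh1, an alcohol dehydrogenase, had 3944 and 1838 and stood at -0.13. Uroc1, which degrades urocanate in hepatocytes, had 67.3 and 27.4, at percentiles of 79.5 and 77.3. Tdo2 was the only one of the 12 kynurenine pathway genes named, and Dio1 was joined on the thyroid hormone list by Bcl3 alone, at -0.95. Ppara was the one named hepatocyte transcription factor of 17, with signals of 690.7 and 344.9 on the shift at -0.03. Of the 10 named probe sets with the highest mean percentile over both arrays, 3 were Pzp, Serpina1a and C3, and the list was led by Apoa1, an apolipoprotein that both liver and small intestine make.

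The label of the tissue was set against those of its defining markers that the authors' table names. Across 4 lists of enterocyte, goblet, Paneth and smooth muscle markers, 29 genes were named beside Habp2, which is on the Paneth list. Of these, 1 lay above the 90th percentile on both arrays, as did 16.6% of the probe sets in the authors' table. It was Fabp2, the intestinal fatty acid binding protein, with signals of 455.3 and 557.9. Below the median on both arrays lay 15, a count for which no share of all probe sets was computed. The signals of Guca2a, a goblet cell peptide, were 0.7 and 0.4, and those of the sodium-glucose cotransporter Slc5a1 were 4.6 and 0.8. No named marker had a signal of exactly 0 (0 on either array). The median percentile of the 29 markers was 36.7 and 38.1, against 93.4 and 93.0 for the 16 plasma protein and hepatocyte genes other than the 9. All probe sets of the authors' table had medians of 67.5 and 67.5. The table named 9 of 34 enterocyte, 4 of 10 goblet, 7 of 10 Paneth (with Habp2) and 10 of 13 smooth muscle genes. The other markers of these lists were not looked up, so these medians do not cover them. The part of another tissue or cell type in the levels of the 9 genes was not tested.

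Summed signals of the marker lists are given as deposited, where the whole high-glucose array was 1.96-fold lower. The summed signal of the 8 named pancreatic acinar genes was 4602 (control) and 111.0 (high-glucose). All 8 were past 2-fold lower relative to the shift, as were 4.97% of expressed probe sets. The authors' deposited table has the same 8 at a median SLR of 0.55, with 5 above 0 and 3 below. Enterocyte markers summed to 587.9 and 653.9 over 9 genes, most of it from Fabp2. The 7 that counted as expressed had a median relative log2 ratio of 1.14, with 4 past 2-fold higher. Past 2-fold in either direction were 9.89% of expressed probe sets. Of the 4 enterocyte genes past 2-fold higher only Fabp2 was bright. Ace, whose ratio is that median, had low signals of 14.9 and 16.7, Lgals4 had 9.5 and 11.5, and Mep1a was low too. By SLR the 9 enterocyte genes had a median of -0.3, with 3 above 0 and 6 below. Goblet cell markers summed to 567.9 and 43.8 over 4, of which Zg16, also on the acinar list, gave 514.3 and 16.7. Paneth cell markers summed to 34.2 and 21.5 over 6 without Habp2. Smooth muscle markers summed to 95 and 50.5 over 10 genes. B and plasma cell markers summed to 530.1 and 326.9 over 11, nearly all of it from Igkc, and the macrophage genes C1qa and Mpeg1 to 496.5 and 274.6. T cell markers summed to 13.3 and 13 over 2 genes, and the kidney marker Aqp1 had 86.6 and 60.0. Erythroid, endothelial and cholangiocyte lists had 0 named genes. The part of these cell types in the difference of Saa1 was not tested.

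**Figure D4:**
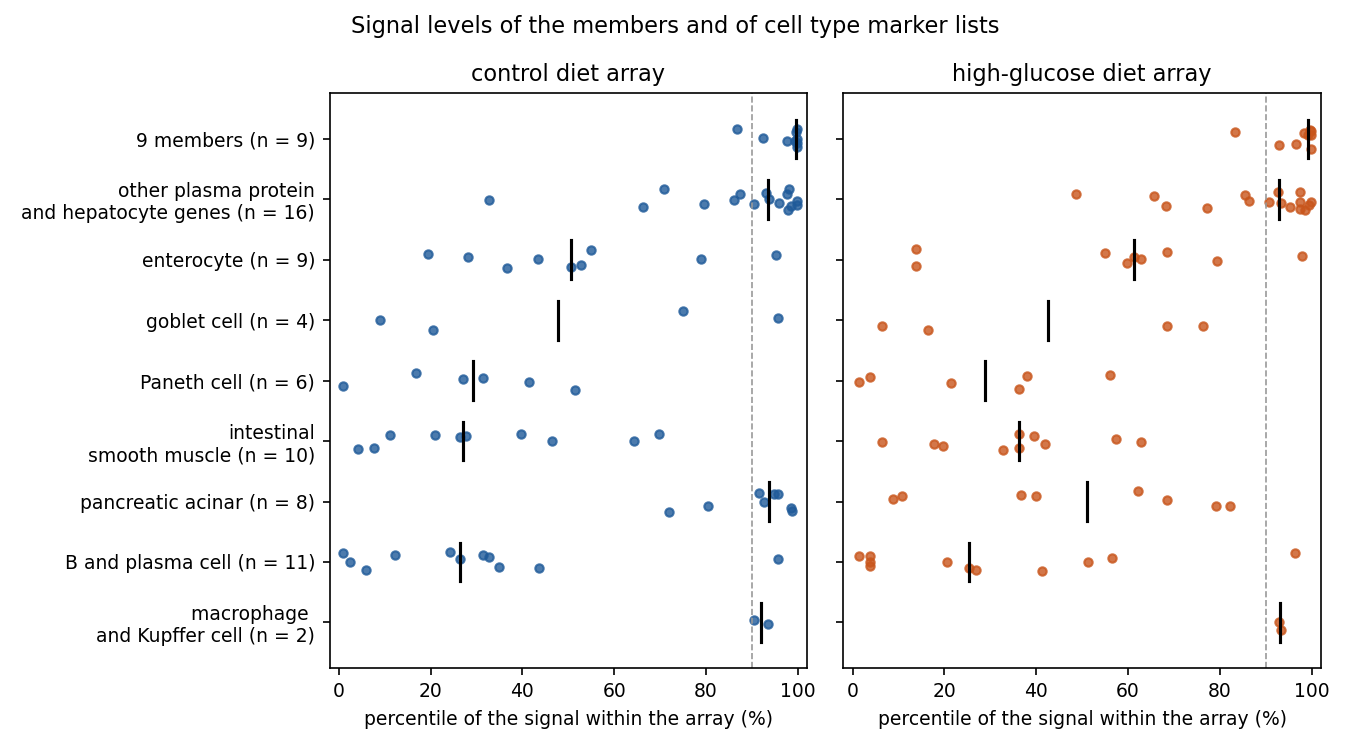
Percentile of the signal within the control array (left) and the high-glucose array (right) for the 9 genes, the 16 other plasma protein and hepatocyte genes and 7 marker lists; each point is 1 named probe set, the black bar is the median and the dashed line the 90th percentile. The 9 genes and the 16 others sit mostly at the right edge, the intestinal lists spread to the left, and the pancreatic acinar genes move from a median of 93.7 to 51.0.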

How the data were processed

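Biotinylated cRNA from total RNA (6 ug) was hybridised to 2 Affymetrix arrays, 1 per diet, per the labels' protocols. The authors deposited an intensity per probe set, made with MAS5 per the submitters' processing notes; no scaling target is stated. The authors' deposited comparison table holds a log2 value (SLR) in steps of 0.1; its direction comes from the table's title. The authors' fold change score in the deposited table equals the SLR written as a signed fold for all 1625 probe sets and was used only to find the scale.

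Gene names came only from that table, updated through RefSeq synonyms. Signals below 2.9 (each array's 25th percentile, averaged) were raised to that floor before the log2 ratio was taken, and the median over expressed probe sets was removed. With 1 array per diet no test was possible. The array number limits the precision. Scripts used Python 3.11.15, pandas 2.3.3 and NumPy 2.4.6, and were tested on simulated data.

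The 9 genes and all lists were chosen with earlier results of these data known. All 9 are described; of each other list, up to 6 (pathways) or 4 (markers) of the brightest named genes, and up to 2 of the dimmest markers, could be named. Prlr falls under that rule. The alternatives were 7 other scalings, other floors, filters and thresholds, and other reference sets for the percentiles.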

Additional observations from a re-analysis of the deposited data

How the results depend on the processing

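No paired analysis was possible because each diet has 1 array. With no shift removed, the median log2 ratio of the 9 genes was -0.94 and 2 were past 2-fold. Under the 10 alternatives that remove a shift or change the floor or filter, the median ranged from -0.16 to 0.07, 1 gene was past 2-fold in each, and Saa1 stayed between -2.33 and -2.14. Of these, both floors left every value as it was and 1 filter repeated another setting, which leaves 7 that could differ. Serpina1a, C3 and Tdo2 stayed above 0 and Habp2 below 0 in those 7, though Serpina1a and C3 came down to 0.13 and 0.11 under quantile normalization. Plg, Pzp, Mbl2 and Dio1 changed sign between alternatives (quantile normalization put Pzp at -0.16), so no direction is given for them. Past 1.5-fold there were 4 genes and past 3-fold 1. The share of all expressed probe sets past these folds was not computed, so neither count can be set against the array. By the SLR that the authors deposited, 6 were past 2-fold, where 18.1% of their table was at least 1 and 9.85% at or below -1. Without Saa1 (chosen after seeing the data) the median was 0.20. Above the 90th percentile on both arrays lay between 7 and 8 genes whatever the reference set, 7 at the 95th and 9 at the 75th percentile. Against the authors' table alone, percentiles moved by over 5 points for Habp2 (to 77.3 and 72.0), Dio1 (to 85.1 and 86.2) and, on the high-glucose array, Saa1 (to 91.2). The mean over probe sets gave no other value, since each gene had 1 in the authors' table. Other probe sets of these genes on the array were not looked for.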
